A study of Rattus norvegicus with 4 samples.

Results

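The miRNAs described here are those encoded inside the Hox gene clusters of the rat: miR-10a, miR-10b, miR-196a, miR-196b, miR-196c and miR-615. They were taken by name, as every probe of one of these miRNAs whose name does not end in an asterisk, which gave 7 of the 679 miRNA probes on the array (miR-10a has a probe for each arm of its hairpin). The 4 arrays were prostate RNA of male TRAP rats, with 1 array each for lateral prostate after OBP-801, lateral prostate after saline, ventral prostate after OBP-801 and ventral prostate after saline. TRAP rats carry a viral T antigen transgene driven by the probasin promoter in prostate epithelium and develop prostate tumours, and the OBP-801 and saline rats share this transgene. OBP-801 inhibits histone deacetylases. Rats were 6 weeks old when treatment began, had 2 intravenous injections a week of 1 mg/kg OBP-801 (the agent label gives 1 mg, with no body weight) or of saline, and were killed after 8 weeks. How many rats gave RNA to an array is not stated. No group has a replicate, so a difference between 2 arrays carries no p-value, and having only 4 arrays limits the precision throughout.

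Hox genes encode transcription factors that specify position along the body axis, and the genes at the posterior end of the clusters are expressed in the developing prostate. In the mouse Hoxb13 is needed for the differentiation of ventral prostate epithelium. The miRNAs interspersed among them are transcribed from the same clusters, and several repress Hox mRNAs: miR-196 directs cleavage of Hoxb8 mRNA in the mouse, and miR-10b represses HOXD10 in human breast cancer cells. A miRNA recognises its targets mainly through its seed, bases 2 to 8 from the 5′ end.

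The mature sequences are shown because the members form families that differ by single bases, which bears on what a probe can separate. All 7 members, from 6 genes, were found in RefSeq's table for the GRCr8 assembly, and the seed is in capitals.
miR-10a-5p: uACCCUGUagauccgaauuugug
miR-10b: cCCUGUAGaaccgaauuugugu
miR-10a-3p: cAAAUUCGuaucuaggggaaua
miR-196a: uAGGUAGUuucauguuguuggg
miR-196b: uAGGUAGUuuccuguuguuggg
miR-196c: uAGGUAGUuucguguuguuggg
miR-615: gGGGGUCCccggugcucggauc

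The 3 miR-196 sequences share 1 seed and differ from each other at position 12 alone, counted from the 5′ end: A12C from miR-196a to miR-196b, A12G from miR-196a to miR-196c, and C12G from miR-196b to miR-196c. The annotated miR-10b begins 2 bases further in than miR-10a-5p, so that by the letter of the annotation the seeds differ. The 2 bases that precede it in its own hairpin, printed in front of it here, restore the seed of miR-10a-5p.
miR-10b with the preceding hairpin bases: uACCCUGUagaaccgaauuugugu
Over the 23 aligned bases this form differs from miR-10a-5p by 1 substitution, U12A. The probe sequences were not used here, so whether the probes of one family separate their members was not tested.

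Relatives outside the Hox clusters share part of these seeds. The seed of miR-196 is contained in let-7a with an offset of 1 base, as a shared run of 7 bases that starts at base 2 of miR-196b and at base 3 of let-7a.
let-7a: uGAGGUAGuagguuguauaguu
miR-100, an evolutionary relative of miR-10, has the same 4 bases from base 2 onward before the seeds part.
miR-100: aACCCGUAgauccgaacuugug

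In GRCr8, the mature miR-10a-5p lies at chr10:81779730-81779752, plus strand, between Hoxb5 and Hoxb4. The mature miR-196c lies in the same cluster at chr10:81727561-81727582, plus strand, between Hoxb13 and Hoxb9. The mature miR-10b, at chr3:80035886-80035907, plus strand, falls within the annotated span of Hoxd4. The mature miR-196b lies at chr4:82661149-82661170, minus strand, between Hoxa9 and Hoxa10. The mature miR-196a lies at chr7:135988900-135988921, plus strand, between Hoxc10 and Hoxc9. The mature miR-615, at chr7:136030369-136030390, plus strand, falls within the annotated spans of Hoxc5 and Hoxc6. Each of the 4 Hox clusters thus contributes at least 1 member.

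A miRNA was called detected on an array when its spot exceeded a limit set on the 2278 blank spots of the same array, their mean plus 2 SD. Between 290 and 329 of the 679 probes passed on an array, 242 passed on all 4 and 300 on none. Of the Hox cluster miRNAs, miR-10a-5p, miR-10b, miR-196b and miR-615 were detected on all 4 arrays, miR-10a-3p on 3, miR-196c on 1 and miR-196a on 0. The same 7 detection counts resulted from a limit set on the 24 negative control spots, and at the blank mean plus 4 SD miR-10a-3p was detected on 2 arrays and miR-196c on 0. As a check of the tissue label, the epithelial list (miR-200a, miR-200b, miR-200c, miR-141, miR-429, miR-205 and miR-203) was detected in full, 7 of 7, on every array. The stromal, leukocyte and endothelial markers on the array, given below, were also all detected on every array. Detection of these lists alone therefore separates neither these cell types nor the lobes. The striated muscle list, also given below, was detected 4 of 4 on both lateral arrays, but 3 of 4 in ventral saline and 2 of 4 in ventral OBP-801.

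miR-10b, encoded within the Hoxd4 span, had the largest difference between the lobes of any member detected on all arrays, under either agent. Its spot signal was 636 in lateral OBP-801, 502 in lateral saline, 316 in ventral OBP-801 and 295 in ventral saline. Both lateral arrays were brighter than both ventral arrays, and within each lobe the OBP-801 array was the brighter one. After normalization, lateral prostate was higher than ventral prostate by 0.80 on the log2 scale under OBP-801 (1.74-fold) and by 0.755 under saline (1.69-fold). These were the fourth highest of 271 and the sixth highest of 255 lobe differences among miRNAs detected on both arrays.

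miR-10a-5p, the major arm of the miR-10a hairpin, had another order of arrays than miR-10b. Its spot signal was 1304 in lateral OBP-801, 1587 in lateral saline, 1033 in ventral OBP-801 and 981 in ventral saline. The brightest array was lateral saline rather than lateral OBP-801. Its lobe difference was 0.56 under saline (1.47-fold), the tenth highest of 255. Under OBP-801 it was -0.165, which became 0.34 without normalization between arrays, 0.35 with the spike controls set equal and 0.38 in the deposited value table. In those 3 settings the median over all miRNAs had moved to 0.28, 0.295 and 0.50, and relative to that median the difference of miR-10a-5p ranged from -0.165 to 0.06 over all settings.

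miR-10a-3p, the other arm of the same hairpin, was close to the detection limit. Its spot signal was 154.0 in lateral OBP-801 and 153.6 in lateral saline, against limits of 129.1 and 124.6. In ventral prostate it was 107.4 after OBP-801, under the limit of 116.4, and 130.8 in saline, above the limit of 123.9. The lateral arrays were therefore the brighter ones for this arm too, by 0.26 on the log2 scale under saline and by at least 1.15-fold under OBP-801, where the ventral array gives only a bound. The size under saline depended on the background step, with 0.87 when the blank level was subtracted, and was 0.615 in the deposited value table.

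miR-615, encoded within the Hoxc5 span, had 663 in lateral OBP-801, 477 in lateral saline, 533 in ventral OBP-801 and 399 in ventral saline. Its order by signal put both OBP-801 arrays above both saline arrays. Its lobe difference was 0.41 under saline. Under OBP-801 it was 0.08, but -0.055 with the medians set equal, 0.315 without normalization between arrays, 0.33 with the spike controls set equal and 0.38 in the deposited value table. Relative to the median of all miRNAs the OBP-801 value ranged from -0.13 to 0.13.

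miR-196b had 345 in lateral OBP-801, 296 in lateral saline, 248 in ventral OBP-801 and 257 in ventral saline. Its 4 normalized log2 values lay between 7.91 and 8.07, the narrowest range of the members detected on all arrays. Its lobe differences were 0.16 under OBP-801 and 0.11 under saline, both smaller than the spread of all miRNAs (0.21 and 0.25, their median absolute deviation scaled to an SD).

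The other miR-196 probes, which differ from miR-196b by 1 base, were under the limit on all arrays but 1. miR-196c had 146.7 in lateral OBP-801, above its limit of 129.1, and 123.2 in lateral saline, under 124.6. In ventral prostate it had 104.1 after OBP-801 and 107.2 in saline, both not detected. Its bound was at least 1.11-fold for lateral over ventral prostate under OBP-801. For OBP-801 over saline in lateral prostate it was 1.09-fold, which is only the difference from the undetected spot's own value. Both were smaller than the spread of all miRNAs (0.15 and 0.124 on the log2 scale, against 0.21 and 0.23). miR-196a had 108.1, 114.2, 104.3 and 110.8 in lateral OBP-801, lateral saline, ventral OBP-801 and ventral saline, below the limit on each array, and no difference is given for it.

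**Figure D1:**
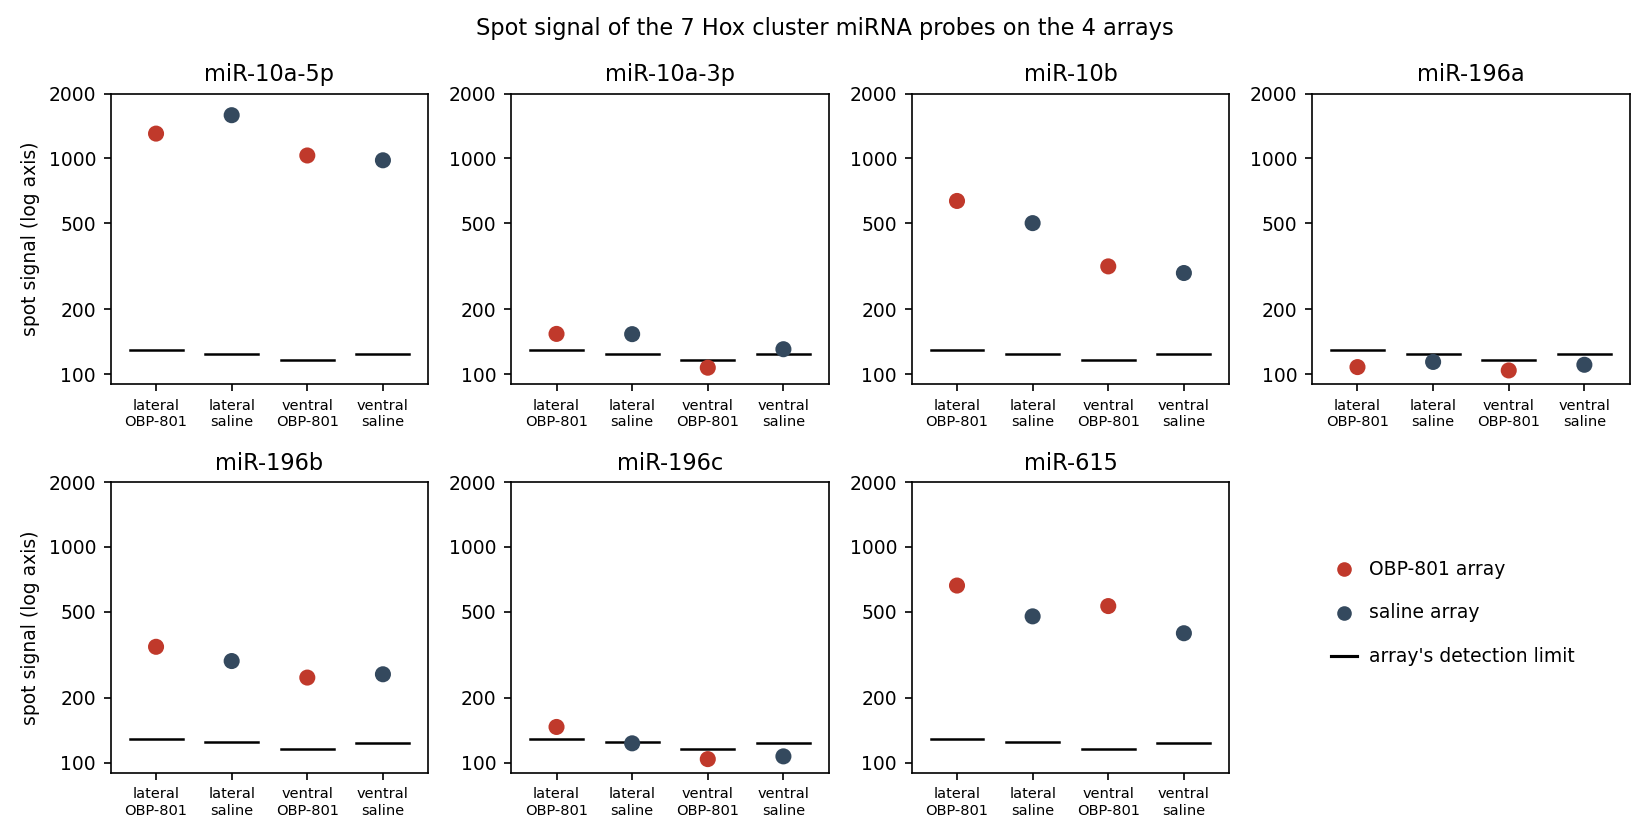
Spot signal (log axis, not background-corrected) of the 7 probes, 1 point for each array, with the array's detection limit as a bar. For miR-10b both lateral arrays (636 and 502) sit above both ventral arrays (316 and 295), for miR-615 both OBP-801 arrays (663 and 533) sit above both saline arrays (477 and 399), and miR-196a lies under the limit throughout.

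For lateral against ventral prostate, 0 members were at least 2-fold higher and 0 at least 2-fold lower under either agent, where 1.18% and 0.392% of all detected miRNAs were under saline and 0.738% and 0.369% under OBP-801. miR-10b passed 1.5-fold in both, as 1 of 4 members detected on both OBP-801 arrays, where 4.06% of all miRNAs were this much higher and 2.58% this much lower, and as 1 of 5 on the saline arrays, where 3.53% were higher and 2.35% lower. Under 3 alternative scalings miR-10b passed 2-fold under OBP-801: its difference was 1.08 without normalization between arrays, 1.10 with the spike controls set equal and 1.30 in the deposited value table. In these settings 2.95%, 3.32% and 15.9% of all miRNAs were at least 2-fold different in either direction, against 1.11% as reported. Relative to the median of all miRNAs, the miR-10b difference ranged from 0.72 to 0.97 under OBP-801 and from 0.71 to 0.99 under saline over all settings. The median difference of the members was 0.12 under OBP-801 (4 members, 3 above 0) and 0.41 under saline (5 members, 5 above 0), beside medians of -0.009 and -0.04 over all miRNAs.

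An additive fit over the 4 arrays, with lobe and agent as terms, gave miR-10b a lobe difference of 0.78 (SE 0.097), higher in lateral prostate in 2 of 2 pairs of arrays. The residual of this fit is only the change of the lobe difference between the agents, moderated over all miRNAs. Its SE and p therefore do not measure variation among rats. The adjusted p of miR-10b was 0.0604 (limma, Benjamini-Hochberg over 242 miRNAs), which misses the threshold of 0.05, where the smallest adjusted p of the fit was 0.0572. Its unadjusted p in this limma fit was 0.000998, the fourth smallest of 242. No member and none of the 242 miRNAs passed the adjusted threshold (0% higher and 0% lower), while unadjusted p under 0.05 was reached by 20 higher miRNAs (8.26%), miR-10b among them, and 23 lower ones (9.5%). The call changed with the processing: the adjusted p of miR-10b in limma ranged from 0.0000522 with the spike controls set equal to 0.282 in the deposited value table, and it was under 0.05 in 6 of 11 alternatives. For the remaining 3 members the fitted lobe differences were 0.24 (SE 0.125) for miR-615, 0.20 (SE 0.200) for miR-10a-5p and 0.14 (SE 0.097) for miR-196b, with adjusted p in limma of 0.425, 0.626 and 0.578. With the spike controls set equal the value of miR-10a-5p was 0.59 and passed (adjusted p in limma 0.00945). In that setting 59 of 242 miRNAs passed for the lobe, and the median lobe difference of all miRNAs was 0.295 under OBP-801 and 0.14 under saline. Without normalization between arrays the value of miR-10a-5p was 0.525 (adjusted p in limma 0.0672). If the numbering of the scanner files marks slide and position on the slide, then slide and lobe, and likewise position and agent, cannot be told apart.

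**Figure D2:**
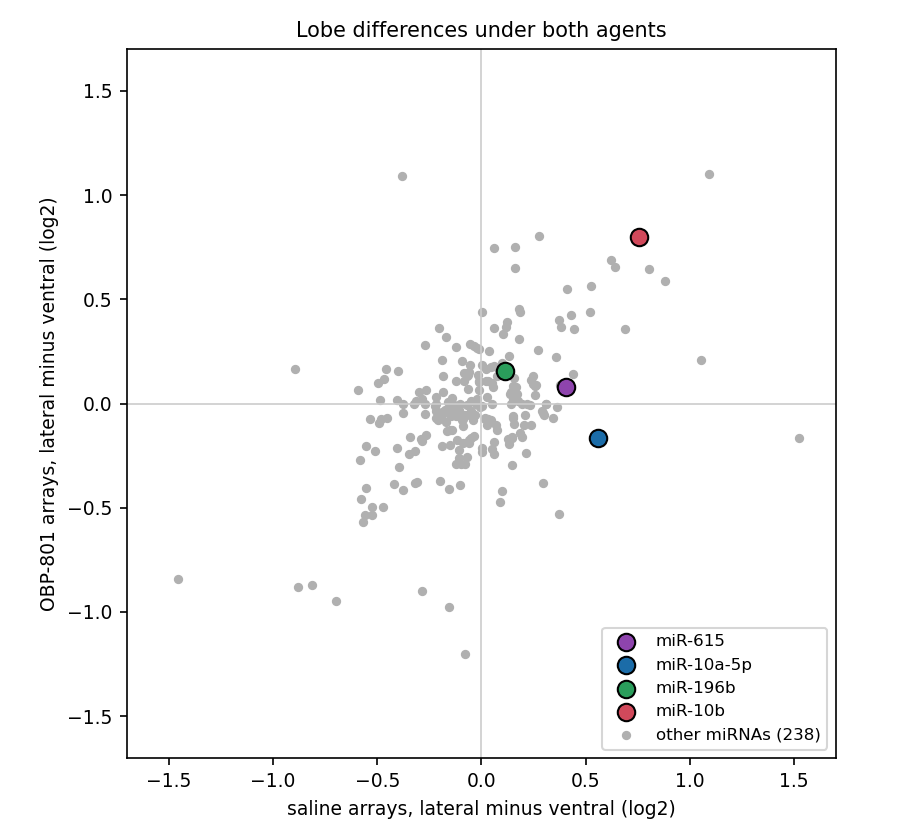
Log2 difference of lateral minus ventral prostate on the saline arrays (horizontal) and on the OBP-801 arrays (vertical) for the 242 miRNAs detected on all arrays, with the 4 Hox cluster miRNAs among them in colour. miR-10b lies at 0.755 and 0.80, while miR-10a-5p lies at 0.56 and -0.165, the second of which changes sign under 3 scalings.

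Markers of other cell types also differed between the lobes, and fewer cells of a type and less RNA per cell cannot be told apart in tissue RNA. The stromal list (miR-143, miR-145, miR-199a-3p, miR-199a-5p, miR-214 and miR-152) was detected in full, 6 of 6, on every array. Its summed spot signal, not normalized, was 18358 in lateral OBP-801, 10342 in lateral saline, 8771 in ventral OBP-801 and 7535 in ventral saline. This is the same order of arrays as for miR-10b, but much of each sum is miR-143 alone (7378, 5500, 3267 and 2662). miR-143 had that order by itself, while miR-145, also in the list, had another (8084, 2821, 3148 and 2888). The order of the sums is also not particular to the stromal list. The sums of the endothelial miR-126 and miR-126* (2456, 1544, 1537 and 1174) and of the let-7 family (48313, 40230, 36307 and 32192) had it too. The epithelial, leukocyte, striated muscle and erythroid sums had other orders. The normalized median difference of the stromal list between the lobes was 0.03 under OBP-801 and 0.02 under saline, with 3 of 6 members above 0 under each. The part of stromal content in the miR-10b difference was not tested.

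The remaining marker lists gave the following lobe differences. The 4 leukocyte markers on the array (miR-142-3p, miR-142-5p, miR-223 and miR-150) were detected on every array, with median differences of -0.50 under OBP-801 and -0.47 under saline. The epithelial list had medians of 0.20 and 0.15, and the endothelial miR-126 and miR-126* had 0.10 and 0.15. Of the striated muscle markers miR-1, miR-133a, miR-133b and miR-206, the 2 detected on both OBP-801 arrays had a median of 0.845, from 0.59 to 1.10. The 3 detected on both saline arrays had a median of 0.88, from -0.283 (miR-206) to 1.09. In each, 1 was at least 2-fold higher, as were 0.738% of all miRNAs under OBP-801 and 1.18% under saline. Erythroid miR-451 had 0.75 and 0.16, and miR-144 was not detected.

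miR-143, a smooth muscle miRNA, was the one whose pattern over the 4 arrays was most like that of miR-10b, by the Euclidean distance between log2 values centred on their mean. The distance was 0.12, where the median over 238 other miRNAs was 0.87. miR-143 had 7378 in lateral OBP-801, 5500 in lateral saline, 3267 in ventral OBP-801 and 2662 in ventral saline. As with miR-10b, both lateral arrays were brighter than both ventral ones. The next nearest were miR-28, at a distance of 0.14, with lobe differences of 0.69 under OBP-801 and 0.62 under saline, and miR-195, at 0.25, with 0.56 and 0.53. miR-145, encoded next to miR-143, had a lobe difference of 1.09 under OBP-801 and -0.38 under saline. With 4 arrays such a distance is a description only.

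Against saline, OBP-801 was accompanied by a higher miR-615 in both lobes. The signals were 663 with OBP-801 against 477 with saline in lateral prostate, and 533 against 399 in ventral prostate. The normalized difference was 0.28 in lateral (1.22-fold) and 0.61 in ventral prostate (1.53-fold), the 28th highest of 271 and the seventh highest of 260. The spread of all miRNAs was 0.23 in lateral and 0.26 in ventral prostate. The difference stayed above 0 in both lobes under each of the 10 alternatives, from 0.22 to 0.50 in lateral and from 0.195 to 0.73 in ventral prostate. Alternatives that change only the detection limit or the filter on dim probes leave this difference as reported and could not move it.

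miR-10a-5p lay on opposite sides of 0 in the lobes. It was lower after OBP-801 than after saline in lateral prostate, by -0.385 on the log2 scale (1304 against 1587), and higher in ventral prostate, by 0.34 (1033 against 981), although the ventral value was -0.26 in the deposited value table, where the median over all miRNAs was -0.47. The gap between the lobes' responses was -0.72, the eighth largest of 242 in size, but its size and rank depended on the scaling. It was -0.48 with the spike controls set equal (rank 34 of 242), -0.38 without normalization between arrays (rank 92 of 242) and -0.23 in the deposited value table (rank 236 of 265). With 1 array a group it was not tested. In lateral prostate its other arm, miR-10a-3p, had nearly equal spot signals (154.0 against 153.6) and a normalized difference of -0.21, which was -0.032 without normalization between arrays and -0.60 with the blank level subtracted. In ventral prostate that arm was detected in saline but not after OBP-801, at least 1.12-fold lower.

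miR-10b and miR-196b differed little between OBP-801 and saline. miR-10b had 0.15 in lateral and 0.11 in ventral prostate, and its ventral value was -0.18 in the deposited value table. miR-196b had 0.027 in lateral and -0.017 in ventral prostate. Each changed sign with the medians set equal, and the ventral value also with no background correction or with the blank level subtracted. All 4 values were smaller than the spread over all miRNAs.

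For OBP-801 against saline, 0 members were at least 2-fold higher or lower in either lobe. Over all miRNAs this was 0.369% higher and 0.369% lower in lateral prostate, and 0.769% higher and 0% lower in ventral prostate. At 1.5-fold, miR-615 was higher in ventral prostate, 1 of 4 members detected on both arrays, where 2.69% of all miRNAs were higher and 3.85% lower. In lateral prostate 0 of 5 members passed 1.5-fold, where 2.21% were higher and 2.58% lower. The members' median was 0.027 in lateral prostate (5 members, 3 above 0) and 0.22 in ventral prostate (4 members, 3 above 0), beside 0 and -0.017 over all miRNAs.

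In the additive fit, the log2 value of miR-615 was higher with OBP-801 by 0.45 (SE 0.125), in 2 of 2 lobes. Here too the SE and p do not measure variation among rats. The adjusted p of miR-615 was 0.215 (limma, Benjamini-Hochberg over 242 miRNAs), so it did not pass, and its unadjusted p in this limma fit was 0.0208. Over the alternatives its adjusted p ranged from 0.0724 to 0.904. No member and none of the 242 miRNAs passed the adjusted threshold (0% higher and 0% lower), and 21 higher (8.68%) and 23 lower (9.5%) reached an unadjusted p under 0.05. The fitted differences were 0.13 (SE 0.097) for miR-10b, -0.023 (SE 0.200) for miR-10a-5p and 0.005 (SE 0.097) for miR-196b, with adjusted p in limma of 0.507, 0.964 and 0.982. For miR-196b the sign turned with the medians set equal and in the deposited value table. The value for miR-10a-5p averages the opposite signs in the lobes.

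**Figure D3:**
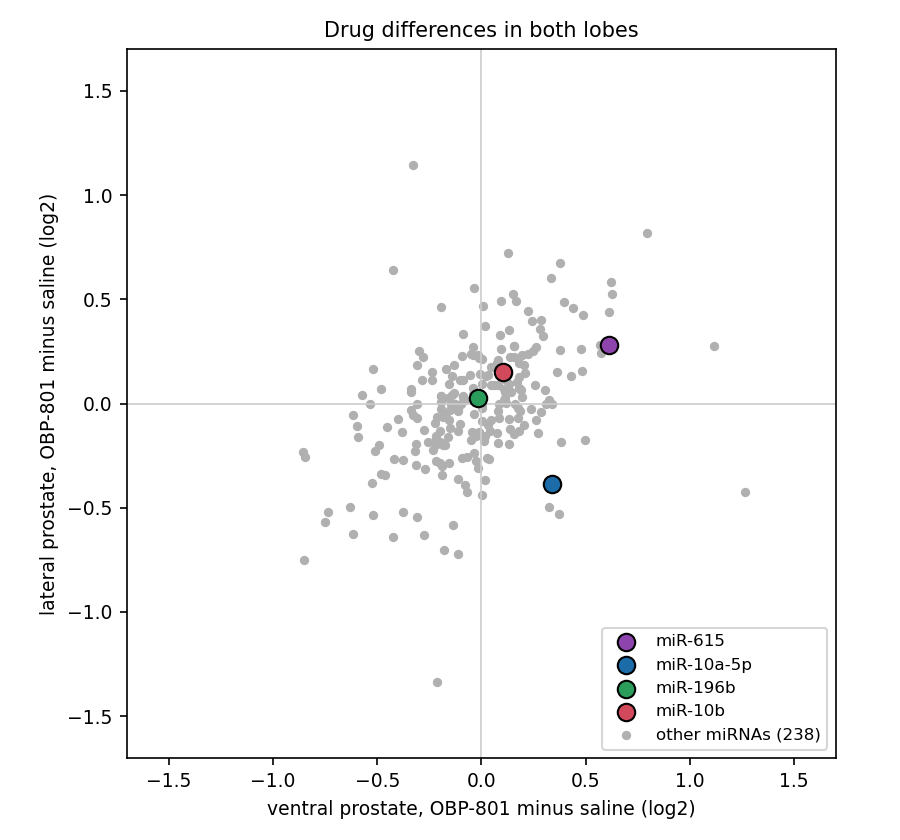
Log2 difference of OBP-801 minus saline in ventral prostate (horizontal) and in lateral prostate (vertical) for the 242 miRNAs detected on all arrays, with the 4 Hox cluster miRNAs among them in colour. miR-615 is above 0 in both lobes (0.61 and 0.28), miR-10a-5p lies at 0.34 and -0.385 (its ventral sign turns in the deposited value table), and miR-10b and miR-196b lie near 0.

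Beside these drug differences, the stromal list had medians of 0.22 in lateral and 0.25 in ventral prostate, with 5 of 6 members above 0 in each. The endothelial markers had 0.25 and 0.30, the leukocyte markers -0.15 and -0.36, the epithelial list 0 and -0.15, the striated muscle markers -0.17 over 4 and 0.14 over 2, and miR-451 0.55 and -0.036. The part of cell content in the miR-615 difference was not tested. By pattern over the 4 arrays, miR-615 was most like miR-99a, at a distance of 0.16 (median over the others 0.63), which had drug differences of 0.26 in lateral and 0.48 in ventral prostate. Next came miR-664-1*, at 0.175, with 0.13 and 0.43, and the endothelial miR-126, at 0.18, with 0.42 and 0.49.

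Those nearest to miR-10a-5p were let-7d* (distance 0.19, with drug differences of -0.14 in lateral and 0.27 in ventral prostate), miR-24-1* (0.23, with -0.365 and 0.015) and miR-505 (0.23, with -0.08 and 0.26), where the median distance was 0.53. miR-196b, which hardly varied, had its nearest patterns in miR-7a-1* (0.044), miR-292-3p (0.062) and miR-345-5p (0.074), against a median of 0.32.

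The opposite arms of the hairpins, which usually accumulate less than the major arm, were mostly not detected. miR-10b* and miR-196a* were under the limit on all 4 arrays, with signals from 99.0 to 124.1 and from 79.7 to 114.3. miR-196c* was detected on both lateral arrays, with 152.6 after OBP-801 and 136.8 in saline, a difference of 0.004 on the log2 scale, and on neither ventral array. This depended on the limit. Its ventral OBP-801 signal of 116.4 sat at the limit of 116.4, and above the 110.2 set on the negative controls. At the blank mean plus 4 SD, the lateral saline signal was under the limit of 145.2. With the main limit, miR-196c* was above it in the lobe where miR-196c itself was, on 1 array, detected. miR-196b* was detected in lateral OBP-801 (136.1) and in ventral saline (125.4), just above the limits of 129.1 and 123.9.

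The relatives outside the Hox clusters had median lobe differences near 0, but single relatives differed much more. For miR-99a, miR-99b, miR-100, miR-125a-5p and miR-125b-5p, which comprise the relatives of miR-10 and the miRNAs encoded beside them, the median lobe difference was 0 under OBP-801 and 0.05 under saline. Of these 5, 1 was at least 1.5-fold lower in lateral prostate under OBP-801 and 0 were higher (2.58% and 4.06% of all miRNAs). Neither happened under saline (2.35% and 3.53%). Their lobe differences under OBP-801 ran from -0.978 to 0.17. The same list had drug differences with medians of 0.13 in lateral and 0.33 in ventral prostate. In each lobe 0 of 5 passed 1.5-fold, where 2.21% of all miRNAs were higher and 2.58% lower in lateral, and 2.69% and 3.85% in ventral prostate. The let-7 family (let-7a, let-7b, let-7c, let-7d, let-7e, let-7f, let-7i and miR-98), whose seed overlaps that of miR-196, had median lobe differences of -0.002 under OBP-801 and 0.04 under saline, and median drug differences of -0.18 in lateral and -0.14 in ventral prostate. Its lobe differences under saline ran from -0.895 to 1.523, and its drug differences in ventral prostate from -0.423 to 1.265. In each of these, 1 member was at least 2-fold higher and 0 were lower (1.18% and 0.392% of all miRNAs for the lobe, 0.769% and 0% for the drug). At 1.5-fold, 0 of its 8 members were higher and 1 was lower in lateral than in ventral prostate under OBP-801 (4.06% and 2.58% of all miRNAs), and 1 was higher and 1 lower under saline (3.53% and 2.35%). After OBP-801, 1 was higher and 1 lower than after saline in lateral prostate (2.21% and 2.58%), and 1 was higher and 0 were lower in ventral prostate (2.69% and 3.85%).

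**Figure D4:**
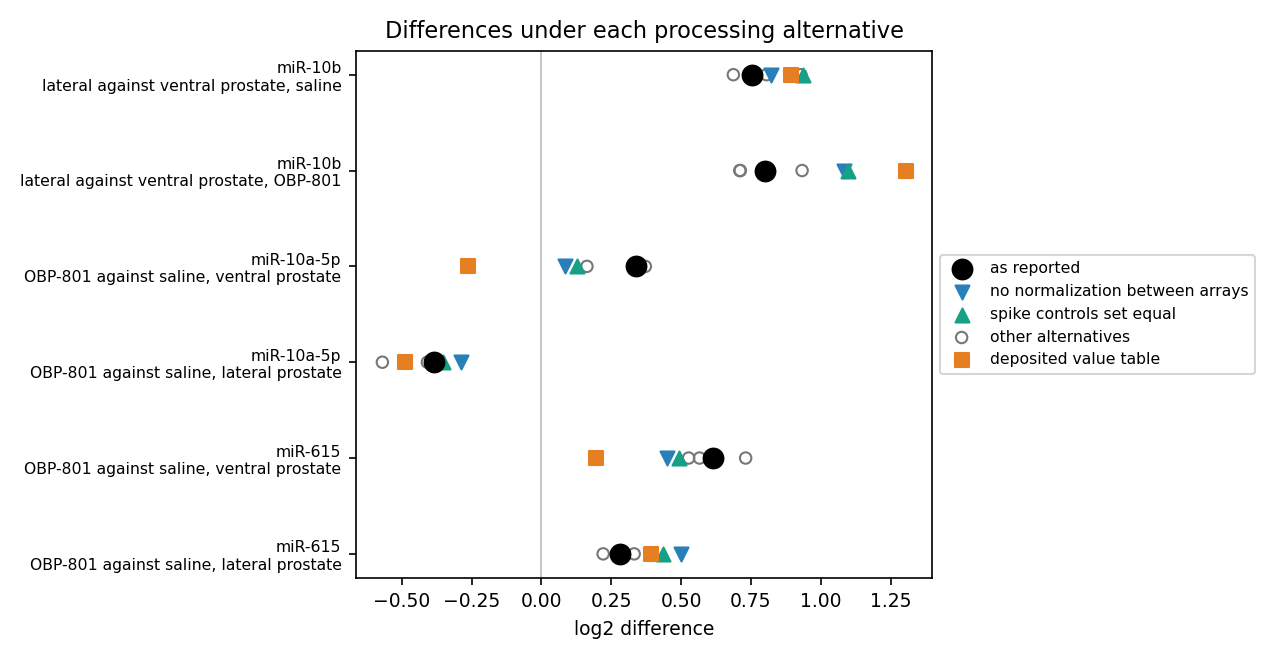
Log2 differences of miR-10b, miR-10a-5p and miR-615 as reported (large black point) and under each alternative processing, of which the deposited value table, the spike controls and no normalization have their own symbols. The lobe differences of miR-10b run from 0.69 to 1.30 and the drug differences of miR-615 from 0.195 to 0.73, all above 0, while the ventral drug difference of miR-10a-5p runs from -0.26 to 0.37.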

How the data were processed

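The members and lists were chosen with earlier results of these data known. The deposited scanner files give, per the file headers, a median intensity for each spot and for its local background, with quality marks at 3 gains. RNA was labelled with Hy5, per the labels' protocols, and each array has 1 colour. The scanner software, the array's maker and the probe sequences are not stated. The authors' deposited value table holds intensity values made by a scaling that no label states. Each column was a straight line of the spot signal (r rounding to 1) with median 25, so it is linear, with dim spots empty.

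Of the 3136 spots of an array, 679 are miRNA probes, 1 each, 2278 are blank, 24 are negative controls and 16 are spike controls. The background step was normexp in limma 3.58.1 (R 4.3.3) over all spots, with 50 as offset, which shrinks the differences of dim miRNAs. Control spots were then dropped, 1 faulty spot (that of miR-26a on the ventral saline array) was treated as missing, and signals were quantile-normalized and then put on the log2 scale. An earlier analysis took log2 first. That order was used for a time and is given as an alternative added after the data were seen. Differences are those of 2 arrays, for miRNAs detected on both. For a miRNA detected on 1 array of a pair, the bound sets the bright value against the dim value or the lowest detected value of the dim array, whichever is higher. The additive fit used lmFit and eBayes (1 residual and 3.27 prior degrees of freedom) and was run on simulated data. Those data had additive effects and the same noise for every miRNA. They cannot show how the fit behaves where the drug difference depends on the lobe, and no result is drawn from them here.

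All members were named, with their opposite arms, miRNAs sharing their seed and, for members detected on all arrays, the 3 miRNAs nearest in pattern. The stromal miR-145 was named after its values were seen. Array names were matched to RefSeq's current arm names by hand. The array names no genome build, so coordinates are those of the RefSeq sequences. Alternatives covered normalization, background correction, detection limit, the deposited table and the terms of the fit.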

Additional observations from a re-analysis of the deposited data

Results flagged for a closer look

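The difference between OBP-801 and saline had opposite signs in the lobes for 2 members, and the difference between the lobes was not tested, since each group has 1 array. For miR-10a-5p it was -0.385 in lateral and 0.338 in ventral prostate, beside a spread over all miRNAs of 0.23 and 0.26. The ventral value was within that reported spread at 0.086 without normalization between arrays, 0.163 with the medians set equal and 0.127 with the spike controls set equal, and it was -0.261, with the same sign as the lateral value, in the deposited value table. For miR-196b it was 0.027 in lateral and -0.017 in ventral prostate, both well within that spread.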

How the results depend on the processing

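The labels give no replicate numbers to serve as a block, and the additive fit pairs the arrays through its lobe and agent terms. The count of members at least 2-fold different stayed 0 in both drug comparisons and in the lobe comparison under saline with all 10 alternatives. In the lobe comparison under OBP-801 it was 1, miR-10b, without normalization between arrays, with the spike controls set equal and in the deposited value table, settings in which the median of all miRNAs was 0.28, 0.295 and 0.50. The share of all miRNAs at least 2-fold different there was 2.95%, 3.32% and 15.9%, against 1.11% as reported. In the additive fit, 0 members passed for OBP-801 under all 11 alternatives. For the lobe, 1 member, miR-10b, passed with no normalization (adjusted p in limma 0.000205), medians set equal (0.0197), no background correction (0.0195), the blank level subtracted (0.0054) and no filter on dim probes (0.0314). With the spike controls set equal 2 passed, miR-10b (0.0000522) and miR-10a-5p (0.00945). With log2 taken before quantile normalization, an alternative added after the data were seen, the adjusted p of miR-10b was 0.0898 and 0 members passed. The cause was not tested. Over all miRNAs the lobe calls in the first 4 of these settings were 28, 19, 15 and 21, with no filter 8 of 678 and with the spike controls 59, against 0 as reported. For OBP-801 they were 4, 0, 2, 15, 0 and 18, against 0. For the lobe, 1 miRNA passed in the deposited value table. At 2-fold that table gave 2 higher and 44 lower miRNAs for OBP-801 in ventral prostate, and 46 higher and 1 lower for the lobe under OBP-801. The fitted drug difference of miR-196b was -0.016 with medians set equal and -0.15 in the deposited value table, against 0.005. Of 179 recomputed differences of 2 arrays, 169 kept their sign, as did 86 of 88 fitted ones. These counts include settings that change only the detection limit or the filter on dim probes. Those settings leave the values as reported, so no sign could change there. Dropping a term likewise leaves the fitted values unchanged. Signal near the detection limit leaves bounds for miR-196c, no difference for miR-196a, and bounds in 2 of 4 comparisons for miR-10a-3p.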
